A study of Mus musculus with 3 samples.

Results

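The GDF15 library was compared with the untreated library of NIH3T3 cells, an established line of mouse embryonic fibroblasts, gene by gene over the whole deposited table. The table holds 15554 rows of protein coding genes, and 9230 of them had a mean FPKM, a number of fragments scaled to transcript length and library depth, of 1 or more over the CTRL and GDF15 libraries. These 9230 rows were examined, and the others are named only where their low level is the point. All cells were of this line and were cultured without serum. CTRL cells received medium alone, GDF15 cells received growth/differentiation factor 15 at 100 ng/mL, and a further set, TGF-β, received transforming growth factor β at 4 ng/mL, each for 24 h. RNA was pooled within a treatment before the library was made, so that each condition is represented by 1 library, differences cannot be set against replicates, and no test was possible. The change of a gene is its log2(FPKM + 1) in GDF15 minus that in CTRL, a scale on which genes of low FPKM appear to change less than they did.

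GDF15 is a secreted member of the TGF-β superfamily. TGF-β itself signals through a pair of receptor kinases to Smad proteins and is known in fibroblasts for inducing extracellular matrix, contractile proteins and matrix crosslinking enzymes. The receptor known for GDF15, Gfral with its partner Ret, is known from the hindbrain and works through a different kind of kinase. In these cells Gfral was listed at an FPKM of 0.142 in CTRL and 0.195 in GDF15, an estimated 5.01 and 8.05 fragments. Ret was listed at 0.015 in CTRL and at 0 in GDF15. The receptors of TGF-β were present, Tgfbr1 at 5.08 in CTRL and 7.04 in GDF15 and Tgfbr2 at 14.4 and 17.2. The endogenous Gdf15 transcript was near the floor in both libraries, at 0.121 and 0.104. Among the markers set for fibroblasts, 9 of 11 had a mean FPKM of at least 1, including Col1a1, Col3a1, Vim, Pdgfra and Thy1, whereas Lum was at 0 in both libraries and Fap was at 0.0643 and 0.0184. All 3 neuron markers were at 0 in both libraries, and the 3 muscle, 4 endothelial and 4 adipocyte markers each summed to at most 0.508 in either library. Of 6 macrophage and leukocyte markers, 3 were above 1, and the highest value was 5.66 in CTRL and 6.2 in GDF15. All 6 summed to 12.8 in CTRL and 12.5 in GDF15, and Ptprc and Csf1r were below 0.15.

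The scale of small changes in these data depended on transcript length. The depth, estimated from the steps of low values, was 16.9 in CTRL and 19.8 in GDF15 (in units of 1e6 fragments), and the deposited FPKM summed to 331179 and 306603. The median change over the 9230 genes was -0.03, and the middle 50% of genes lay between -0.18 and 0.11. Genes with a longest coding transcript of up to 800 bases had a median change of -0.36 (233 genes), and those over 8000 bases had a median of 0.17 (480 genes). The rank correlation of change with length across 9198 genes, which are not independent replicates, was 0.48. The same bins had medians of -0.22 and 0.04 in the TGF-β library, whose changes share the CTRL library with those of GDF15 and are given below side by side for that reason. Without replicate libraries, a difference between the libraries and a difference between the cells cannot be told apart here. Changes of single genes are as deposited unless stated. Subtraction of a running median over genes of similar length gave the length-corrected change, which is printed for most lists and for some of the named genes. The local spread of the change among genes of like expression, used in place of a replicate error, had a median of 0.21.

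**Figure D1:**
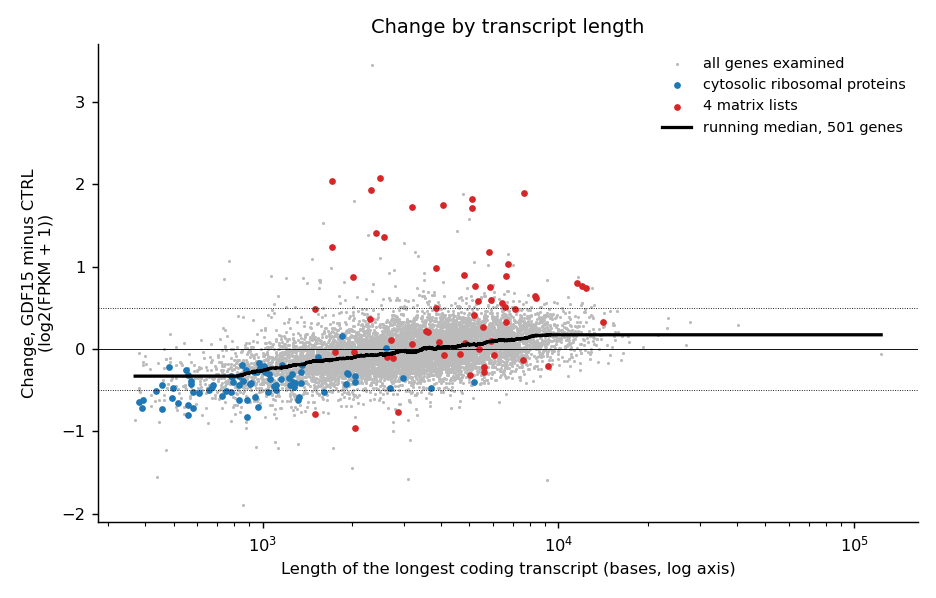
Change of each examined gene (y axis, difference of log2(FPKM + 1) between GDF15 and CTRL, 1 library each) against the length of its longest coding transcript (x axis, bases, log axis). The running median (black) climbs with length, bin medians going from -0.36 to 0.17, the ribosomal protein genes (blue) lie at its lower left end, and genes of the 4 matrix lists (red) reach far above it at all lengths.

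A change over 1, or 2-fold, was reached by 31 of the 9230 genes upwards (0.336%) and 12 downwards (0.130%). Because 1 is added to each FPKM, some genes whose FPKM differed by slightly more than 2-fold stay below this line. Where 2-fold is used as a limit, a change of 1 on this scale is meant. Below that, a change over 0.5, which is 1.41-fold, was counted for smaller effects, and genes past it are said here to have risen or fallen. As deposited, 175 genes rose (1.90%) and 272 fell (2.95%). After the length correction 174 of 9198 genes rose (1.89%) and 93 fell (1.01%). The counts of each list stand against these shares. Of the genes that rose, 133 did so both as deposited and length-corrected, and of those that fell, 85 did. Short transcripts made up much of the excess of falls, since 129 of the 272 falling genes had transcripts of up to 1200 bases, and 17 genes of that length were below -0.5 after correction. The change was above 0 for 44.3% of all examined genes. After the length correction a residual trend with GC content was left (rank correlation -0.36). The minimum level was reached through the GDF15 library alone by 38 genes, of which 12 rose, and through the CTRL library alone by 43, of which 13 fell. The level at which such genes were examined favours a change, and they include Mfap4, Postn and Krt17 among rises and Nov, Cxcl1 and Ugt1a9 among falls.

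Genes of the extracellular matrix were among those that rose. Fibrillar collagens are the main tensile proteins of connective tissue, and of 19 examined collagen chain genes 10 rose and 0 fell, beside 1.90% and 2.95% of all genes, with a median change of 0.51 against -0.03 over all genes. The length-corrected median was 0.41 (0.50 with the GC trend also removed), with 7 genes over 0.5 (beside 1.89% of all genes). Col1a1 went from 1103 in CTRL to 1669 in GDF15 and Col1a2 from 1233 to 1841, and these are the chains of type I collagen. Among chains of the less abundant fibrillar type V and XI collagens, Col5a2 went from 283 to 522 and Col11a1 from 3.72 to 16.5. Col5a1 went from 99 to 153 and Col16a1, a fibril-associated collagen, from 179 to 303. Their changes were 0.62 and 0.76 as deposited, and 0.46 and 0.70 length-corrected. Col8a1, a short-chain network collagen, went from 9.6 to 33.8 and Col12a1, which sits on fibril surfaces, from 1.99 to 4.22. Col3a1 was the most abundant collagen transcript in CTRL, and its change was 0.26, from 3738 to 4484. The chains were thus uneven, with 8 of the 19 at or below 0.

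Small leucine-rich proteoglycans bind collagen fibrils and set their diameter. Of 6 examined members 3 rose and 0 fell, beside 1.90% and 2.95% of all genes. Their median change was 0.78, but 0.20 when a mean FPKM of 5 was asked for. Bgn went from 290 to 770, Ogn from 12.6 to 33.9 and Aspn from 1.29 to 7.7. Dcn, the most abundant member in CTRL, and Prelp did not follow, with 419 and 408 for Dcn and 86.8 and 100.2 for Prelp. Aspn and Ogn are neighbours on chromosome 13 (49544443 to 49567565 and 49608046 to 49624501, GRCm38), and so is Fgd3, an exchange factor of a small GTPase, whose change was 0.64.

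Elastic fibres consist of elastin laid on microfibrils with the help of fibulins and latent TGF-β binding proteins. Of 15 examined genes of this group 6 rose and 0 fell, beside 1.90% and 2.95% of all genes. Their median was 0.49 as deposited and after the length correction (0.58 with the GC trend also removed). Eln, elastin itself, went from 1.79 to 4.53, Fbln5, an elastin-binding fibulin, from 17.6 to 41.1, and Ltbp2 from 19.4 to 40.7. Fbln2 was already abundant in CTRL at 257 and reached 480. Mfap4 was near the floor in CTRL, with an FPKM of 0.0816 from an estimated 2.38 fragments, and had 3.43 from 117 fragments in GDF15. Efemp1, also a fibulin and the most abundant of the group, had 531 and 516.

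Matricellular proteins are secreted regulators that bind the matrix without being its structural parts. Of 19 examined genes, fibronectin included, 9 rose and 3 fell, beside 1.90% and 2.95% of all genes. Their median change was 0.48 and the length-corrected median 0.43. Ctgf, also called CCN2, went from 9.03 to 41.3, and its relatives Wisp1 and Wisp2 from 1.5 to 7.79 and from 14.5 to 35.5. Postn went from 0.73 to 4.73 and Ccdc80 from 11.5 to 40.9. Fn1, one of the most abundant transcripts of the table, went from 3738 to 5815, a change of 0.64 (0.47 after correction for its length). Thbs1, thrombospondin, which can release latent TGF-β, went from 6.37 to 11.4. The members that fell were Spp1, osteopontin, from 556 to 322, Nov, the CCN family member that often opposes Ctgf, from 2.2 to 0.89, and Spon2, a secreted spondin. Sparcl1 and Spon2 had the largest length-corrected falls among genes that did not reach 2-fold, from 28.1 to 13.6 and from 69.3 to 35.2.

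**Figure D2:**
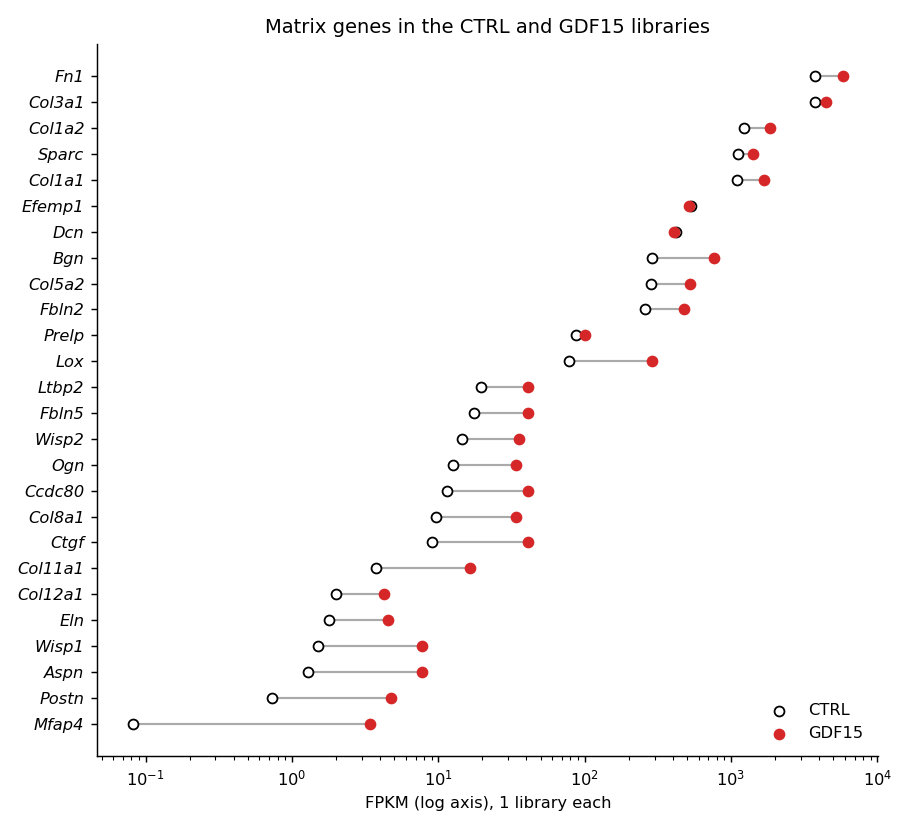
FPKM of 26 matrix genes in the CTRL library (open) and the GDF15 library (red), 1 library each, on a log axis, ordered by their level in CTRL. The genes were picked by hand and not by a rule, and the falling genes Spp1, Nov and Spon2 are not among them. Abundant genes such as Fn1 and Col1a1 shifted little on this axis, genes of low level such as Postn, Aspn and Mfap4 shifted most, and Dcn and Efemp1 did not move to the right.

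Together the 59 examined genes of these 4 lists had a summed FPKM of 16451 in CTRL and 22103 in GDF15. Weighted by transcript length, they took an estimated 10.4% of all fragments in CTRL and 14.3% in GDF15. Over the same libraries the cytosolic ribosomal protein genes went from 14.7% to 11.6% of the summed FPKM, and all transcripts of up to 1200 bases from 27.1% to 22.1%. These shares add up within a library, so an increase of abundant matrix transcripts and a decrease of abundant short ones cannot be told apart in them.

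The enzymes that process collagen moved in the same direction by smaller steps. In the list of collagen modification and crosslinking 19 of 22 examined genes had a change above 0, beside 44.3% of all genes. In it 2 rose and 0 fell, beside 1.90% and 2.95% of all genes, and the median was 0.21 (0.29 length-corrected). Lox, lysyl oxidase, which crosslinks collagen and elastin, had the largest change, from 78.0 to 289. P4ha3, a prolyl 4-hydroxylase subunit, went from 7.42 to 13.6, and Plod2, a lysyl hydroxylase, had 29.7 and 40.4. Pcolce, an enhancer of procollagen cleavage, had 419 and 377. For laminins and other basement membrane genes the median was 0.24 as deposited and 0.15 length-corrected over 11 genes, with Col4a1 and Col4a2 at 0.51 and 0.55 and the linker gene Nid1 at -0.38. Length-corrected, Col4a1 and Col4a2 were at 0.41 and 0.44. Matrix proteases and their inhibitors showed no common direction. Their median was -0.05 over 22 genes, Timp3 went from 161 to 244, Adamts5 from 21.5 to 34 (length-corrected change 0.46), and Klk8 fell from 6.35 to 2.29.

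A small difference was seen in the machinery that folds and exports secreted proteins. In the endoplasmic reticulum, chaperones and disulfide isomerases fold new chains before COPII vesicles carry them to the Golgi. For 40 genes of folding and the unfolded protein response the median change was 0.22 (0.23 length-corrected), 31 were above 0, and 1 rose as deposited. That gene was Hsp90b1, the chaperone GRP94, from 227 to 344. P4hb had 384 and 485, Calr 307 and 373, Pdia6 133 and 180, Ero1l 22.6 and 31.5, and Spcs3 17.2 and 24.1, each a change under 0.5 as deposited. Of 25 genes of collagen export and the secretory pathway 22 were above 0 and none of the 25 passed 0.5, with a median of 0.19 (0.23 length-corrected) and quartiles of 0.13 and 0.26. Sec23a, of the COPII coat, had 14.4 and 20.8, and Serpinh1, the collagen chaperone HSP47, 265 and 348. Kdelr1, a retrieval receptor, was among those below 0, at 97.5 and 83.1. Single changes of this size are about the local spread of 0.21, and 22 of 25 and 31 of 40 genes above 0 stand beside 44.3% of all genes. The list medians of the TGF-β library against the same CTRL library were 0.23 for folding and 0.19 for export.

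A scan of all 137 symbol families with at least 8 examined members, which was not built from pathways, ordered them by length-corrected median. Highest were Col (0.34, 20 genes, Col4a3bp counted by its symbol), Fkbp (0.26, 13 genes), Exoc (0.21, 9 genes), Lrp (0.21, 8 genes), Tmed (0.20, 8 genes) and Dhrs (0.16, 8 genes), and Sec (0.16, 19 genes) followed. Fkbp genes encode peptidyl prolyl isomerases, several of them in the endoplasmic reticulum, Exoc genes the exocyst tethering complex, and Tmed genes cargo receptors of early secretory vesicles. In the Fkbp family 4 of 13 genes were over 0.5 after correction and 10 were above 0, although its median as deposited was 0.01. The 4 genes were Fkbp7, from 14.9 to 19.8, Fkbp9, from 85 to 120.4, Fkbp11, from 26.1 to 31.4, and Fkbp14, from 7.72 to 12.1, all of them isomerases of the endoplasmic reticulum. Lowest were Sema (-0.23, 9 genes), Ndufb (-0.18, 10 genes), Rpl (-0.18, 43 genes), Itgb (-0.15, 8 genes), Rps (-0.14, 40 genes) and Tomm (-0.13, 9 genes). The Itgb family was split rather than low, since 2 of its 8 genes, binding protein genes included, were over 0.5 and 4 were above 0.

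Integrins are the dimeric receptors that hold cells to the matrix. Of 13 examined integrin and integrin-like genes 6 rose and 1 fell, beside 1.90% and 2.95% of all genes, with a median of 0.17 (0.12 length-corrected, and 0.53 as deposited when a mean FPKM of 5 was asked for). Itga11, a collagen receptor subunit, went from 1.08 to 5.2, and Itgb5, which pairs with Itgav, from 56.3 to 129. Itgav itself went from 44.1 to 71.3, Itgb1, the common β chain, from 140 to 202, and Itgbl1 from 28.1 to 50.05. Itgb3, also a partner of Itgav, went from 23.35 to 34.3, with a length-corrected change of 0.45. The member that fell was Itga2b, the platelet chain, from 4.41 to 2.76. Itga5, of the fibronectin receptor, had 77.1 and 73.2. Among adaptors of focal adhesions, 17 genes with a median of 0.05, Nedd9 rose from 10.6 to 16.9, while Zyx had 225 and 223.

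Contractile and cytoskeletal genes were divided between a few large changes and a majority of small ones. The list of smooth muscle contractile genes and targets of serum response factor had a median of 0.15 (0.11 length-corrected) over 34 genes, and 5 rose and 1 fell, beside 1.90% and 2.95% of all genes. Acta2, smooth muscle actin and the usual marker of activated fibroblasts, went from 20.4 to 73.6, and Tagln, SM22, from 2.2 to 8.27. Fhl2, a LIM domain adaptor, went from 32.0 to 56.8 and Myl9, the regulatory myosin light chain, from 1.76 to 3.31. Csrp2, a LIM protein, was the gene that fell, from 129 to 89.4, with a length-corrected change of -0.34. After the correction 4 genes of the list were over 0.5 and none below -0.5. The abundant members Actb and Vim had 690 and 681, and 2245 and 2018. The named genes that rose in this list were thus of low or intermediate level.

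For targets of YAP and TAZ, coactivators that respond to adhesion and tension, the median over 26 genes was 0.20 (0.19 length-corrected), 7 rose and 0 fell, and 21 were above 0. Over all genes 1.90% rose, 2.95% fell and 44.3% were above 0. Besides Ctgf, which the list shares with the matricellular genes, Cyr61 (CCN1) went from 3.37 to 7.0, Vgll3 from 13 to 27.4, and Nuak2 from 4.08 to 6.62. Ptrf, a caveolar gene, had 367 and 310. In the TGF-β library the median of the list was 0.06 against the same CTRL.

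Genes of the Smad pathway and its feedback had a median of 0.22 over 25 genes, and 4 rose and 1 fell, beside 1.90% and 2.95% of all genes. Pmepa1, a feedback inhibitor, went from 1.53 to 5.83, and Skil, a Smad corepressor, from 2.45 to 6.07. Ltbp2, named above, is shared with the elastic fibre list. Tgif1, also a corepressor, had 55.6 and 64.8. Id3, a target of bone morphogenetic protein signalling, fell from 17.7 to 9.78. Among receptors of the TGF-β family, 10 of 20 were examined, and Bmpr1a and Bmpr2 rose as deposited, from 16.5 to 24.9 and from 16.2 to 23.5, but had length-corrected changes of 0.48 and 0.34. Acvr2b had 3.49 and 2.42, and Tgfbr3, a coreceptor, 45.7 and 39.1. Ligands of the family moved in both directions, with Inhba at 3.95 and 6.01 (length-corrected change 0.39) and Inha at 15.1 and 9.31 (length-corrected change -0.49). In the Notch pathway the ligand Jag1 went from 10.6 to 17.6 and the target Hes1 from 2.57 to 6.61, with a median of 0.08 (0.02 length-corrected) over 9 genes.

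Promoter sequence was examined for what the changed genes share beyond their values. A RefSeq window (GRCm38.p6) of 250 bases before to 50 bases after the start was available for 7387 examined genes, 122 of them genes that rose and 204 genes that fell, and 15 motifs were searched on either strand. The SMAD element CAGACA was found in 14.7% of all windows, in 23% of those of genes that rose (28 windows) and in 17.6% of those of genes that fell. The CArG box, bound by serum response factor, was found in 1.31% of all windows and in 4.92% of the windows of genes that rose, which were Fhl1, Fhl2, Lgr4, Myl9, Pdgfc and Vma21 (the last with a length-corrected change of 0.47). Only exact matches to CCWWWWWWGG, with W being A or T, were counted. Acta2 had none, but its window holds the near matches ccctatatgg and ccttgtttgg. The TEAD site GGAATG was in 11.4% of all windows and in 16.4% of those of genes that rose. The TATA box TATAAA was in 6.48% of all windows and about as often in both changed groups, 12.3% and 12.7%. The E2F site was in 4.55% of all windows in 0 of 122 among genes that rose and in 1.47% of those of genes that fell. The GC box GGGCGG, found in 68.8% of all windows, was in 53.9% of those of genes that fell. These shares are descriptions, a match is not a site in use, and groups that differ in TATA and GC boxes differ in base composition as well.

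The 4 sequences below are the 250 bases before the start, shown with the matched motif in capitals, for the contractile genes Myl9 and Fhl2 (CArG box), for Acta2 (SMAD element, on the opposite strand) and for Hmgcs1, an early enzyme of the cholesterol pathway (sterol response element TCACNCCAC). They are read 5′ to 3′ on the strand of the gene, at chr2:156775214-156775463, plus strand, at chr1:43196762-43197011, minus strand, at chr19:34255374-34255623, minus strand and at chr13:119690101-119690350, plus strand.
Myl9: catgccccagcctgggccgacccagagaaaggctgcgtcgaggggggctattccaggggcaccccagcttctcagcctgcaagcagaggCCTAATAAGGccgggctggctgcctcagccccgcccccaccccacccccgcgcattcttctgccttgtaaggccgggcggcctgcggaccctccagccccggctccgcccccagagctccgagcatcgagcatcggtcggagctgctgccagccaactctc
Fhl2: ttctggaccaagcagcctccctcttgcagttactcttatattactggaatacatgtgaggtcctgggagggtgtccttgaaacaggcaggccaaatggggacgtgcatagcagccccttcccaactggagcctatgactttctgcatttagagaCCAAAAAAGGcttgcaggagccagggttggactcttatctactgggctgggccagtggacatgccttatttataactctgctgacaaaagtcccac
Acta2: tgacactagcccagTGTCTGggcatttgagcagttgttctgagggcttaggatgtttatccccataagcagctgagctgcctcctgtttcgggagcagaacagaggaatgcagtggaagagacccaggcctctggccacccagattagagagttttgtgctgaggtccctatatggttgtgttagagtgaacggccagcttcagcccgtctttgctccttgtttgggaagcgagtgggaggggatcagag
Hmgcs1: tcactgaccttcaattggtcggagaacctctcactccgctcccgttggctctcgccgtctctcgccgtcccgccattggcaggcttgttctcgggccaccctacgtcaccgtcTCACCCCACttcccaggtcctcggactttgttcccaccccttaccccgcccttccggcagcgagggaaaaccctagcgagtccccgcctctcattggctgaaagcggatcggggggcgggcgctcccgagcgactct
The matches begin at -161 in Myl9, -96 in Fhl2, -236 in Acta2 and -137 in Hmgcs1, counted with the start base as 0.

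**Figure D3:**
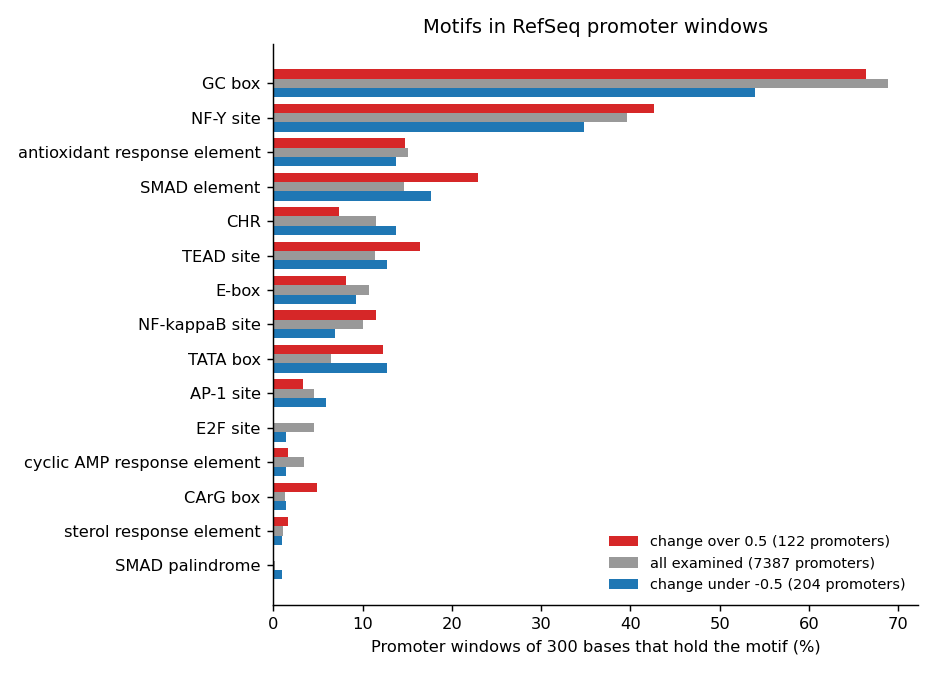
Share of promoter windows that hold each of 15 motifs (x axis, %), for 122 genes that rose (red), all 7387 examined genes with a window (grey) and 204 genes that fell (blue). The NF-Y site is the motif CCAAT. Red bars exceed grey ones for the SMAD element, the TEAD site, the TATA box and the CArG box. They do so by fewer percentage points for the NF-Y site, the NF-kappaB site and the sterol response element. The blue bar of the GC box is shorter than its grey bar.

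Biosynthetic pathways formed a further group of small common changes. Sterol synthesis starts from acetyl-CoA and is driven as a unit by the factor SREBP2. Of 26 examined genes of cholesterol synthesis and uptake 24 were above 0 (beside 44.3% of all genes), with a median of 0.28 (0.27 length-corrected). As deposited 4 genes were over 0.5 and length-corrected 7, beside 1.90% and 1.89% of all genes. Hmgcs1 went from 54.7 to 85.9, Idi1, isopentenyl diphosphate isomerase, from 30.3 to 46.1, Cyp51, lanosterol demethylase, from 59.3 to 88.5, and Hsd17b7 from 9.6 to 15.3. Sqle, squalene epoxidase, had 99.5 and 138, and Fdps had 91.2 and 115. The median of the list was 0.94 in the TGF-β library against the same CTRL, with 1.31 for Hmgcs1. Fatty acid synthesis had a median of 0.18 (0.14 length-corrected) over 17 genes, Acsl3, an acyl-CoA synthetase, went from 23.4 to 34, and the desaturase gene Scd2 had 155 and 211.

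Amino acid supply was the other branch. In the list of serine, one-carbon and proline synthesis 5 of 19 examined genes rose and 0 fell, beside 1.90% and 2.95% of all genes. The median was 0.20 (0.29 length-corrected). Aldh1l2 and Mthfd2, mitochondrial folate enzymes, went from 7.25 to 13.1 and from 7.92 to 12.8, and Aldh18a1, the first enzyme of proline synthesis, from 16.4 to 25.6. Asns, asparagine synthetase, went from 31.5 to 45.5, and Pycr1, the last enzyme of proline synthesis, from 4.87 to 7.32. Proline and glycine are the amino acids that collagen is richest in. Several of these are targets of ATF4, the amino acid response factor, and 5 genes are shared with the list of ATF4 targets, whose median was 0.15 (0.11 length-corrected) over 30 genes. The transcript of Atf4 itself had 156 and 173. Of the cytosolic tRNA synthetases 15 of 19 were above 0 (beside 44.3% of all genes) and none of the 19 passed 0.5. Their median was 0.20, with quartiles of 0.04 and 0.27. Eprs, which charges glutamate and proline, had 30.05 and 42.6, and Gars, which charges glycine, 57.5 and 74.2. In the TGF-β library these 3 lists had medians of 0.46, 0.39 and 0.33. Glycolysis had a median of 0.09, and 0.19 after the length correction, over 18 genes, with the low row of Eno1 (2.46 and 1.26) uncertain because Eno1 has processed copies. Pfkp, a phosphofructokinase, had 11.8 and 16.0.

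**Figure D4:**
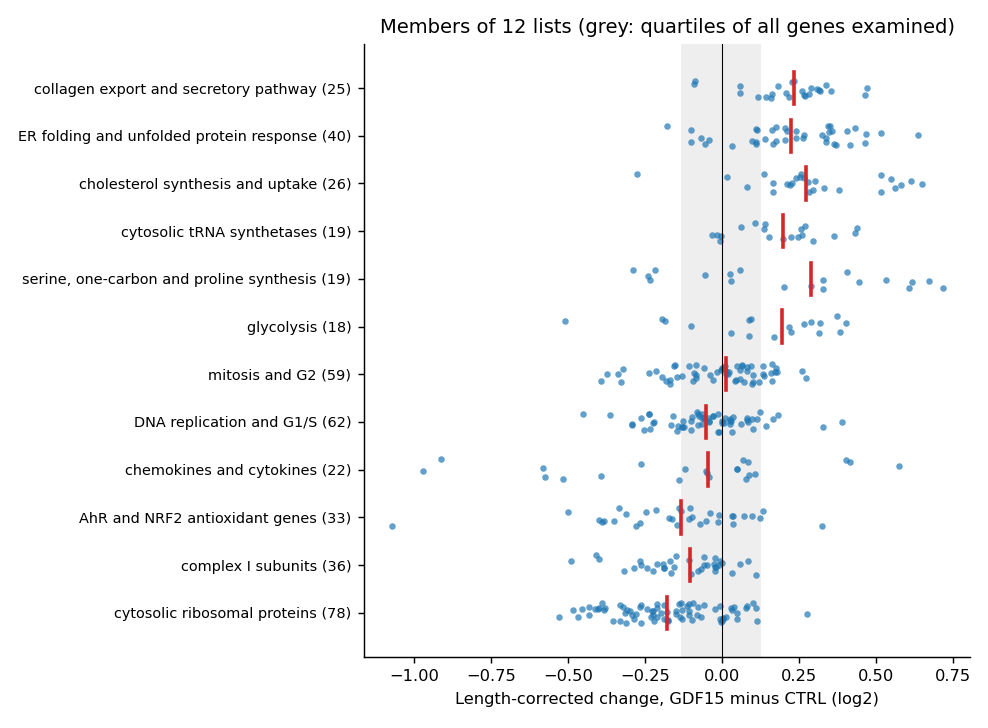
Length-corrected change (x axis, log2) of every examined member of 12 lists (blue points, 1 point a gene, with the number of genes in brackets), with the list median as a red bar and the quartiles of all genes in grey. The secretory, folding, sterol and tRNA synthetase lists lie mostly to the right of the grey band, the medians of mitosis and DNA replication lie within it, and more than 50% of the ribosomal protein genes lie to its left.

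Cell cycle genes stayed close to 0. For 59 genes of mitosis and G2 the median change was -0.04 (0.01 length-corrected), none rose and 1 fell, which was Pttg1, securin, from 34 to 23.6 and with a length-corrected change of -0.37. Birc5, survivin, had 37.8 and 28.1, and Ube2c 45.7 and 37.6. For 62 genes of DNA replication and G1/S the median was -0.08 (-0.05 length-corrected), and none rose or fell. Pcna had 65.3 and 66.2, and Rfc2 22.8 and 17.1. The signs of both medians depend on the scaling, being 0.06 and 0.00 with the libraries scaled to a common FPKM sum. Against the same CTRL library the TGF-β library had medians of -0.48 and -0.16.

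Genes of the ribosome and of the respiratory chain had medians below 0 as deposited, and these lay closer to 0 after the length correction. The cytosolic ribosomal protein genes, whose median transcript length was 942 bases, had a median change of -0.42 over 78 genes, and 25 fell, beside 2.95% of all genes. Length-corrected, the median was -0.18 and 1 fell, which was Rpl30. With the ribosomal genes themselves left out of the length trend it was -0.21, and with length and GC removed -0.15. The most abundant, Rplp1, had 2520 and 1808. For complex I the median was -0.35 (-0.10 length-corrected) over 36 genes, for complexes III and IV -0.43 (-0.12) over 20, for ATP synthase -0.29 (-0.13) over 17, and for mitochondrial ribosomal proteins -0.26 (-0.08) over 76. Within ATP synthase the short Atp5k and Atp5e had 224 and 123, and 349 and 216 (length-corrected change of Atp5e -0.36), while the longer Atp5b had 428 and 421. The 694 other genes of up to 1200 bases, outside the ribosome, had a median of -0.26.

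Enzymes of detoxification and antioxidant defence were lower in GDF15, most of them by less than 0.5 once length was taken into account. The list of targets of the factors AhR and NRF2 had a median of -0.20 (-0.13 length-corrected), and 8 of 33 genes fell as deposited (beside 2.95% of all genes) but 1 after correction (beside 1.01%). That one was Aldh3a1, an aldehyde dehydrogenase, from 160 to 69.3. Fth1 and Ftl1, the ferritin chains, were at 4031 and 2574, and at 1653 and 1088, with length-corrected changes of -0.50 and -0.33. Gstp1 and Gsta4, glutathione transferases, had corrected changes of -0.35 and -0.38. Ces1d, a carboxylesterase, fell from 16.5 to 5.46. Xdh, xanthine dehydrogenase, and Ugt1a7c, a glucuronosyltransferase, were among the 10 largest corrected falls below 2-fold, from 78.4 to 47.9 and from 17.7 to 10.3. Ugt1a7c shares exons with Ugt1a9, which fell by 0.67, and the fragments of these genes cannot be kept apart with certainty.

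Of 22 chemokine and cytokine genes 6 fell and 0 rose as deposited (beside 2.95% and 1.90% of all genes). After the length correction 5 fell and 1 rose (beside 1.01% and 1.89% of all genes), while the median went from -0.23 to -0.04. Cxcl1, a neutrophil attractant, went from 3.22 to 0.86, Tslp from 10.7 to 4.08, Clcf1 from 61.5 to 37.7 and Tnfsf9 from 13.7 to 7.99. Il33, an alarm cytokine, went from 5.27 to 3.01, and Il34, a ligand of the macrophage receptor Csf1r, from 19.1 to 13.1 with a length-corrected change of -0.39. The abundant chemokine Ccl2 had 123 and 105. In the interferon and antigen presentation list 4 of 34 genes fell as deposited (beside 2.95% of all genes) and 1 after correction (beside 1.01%), Psmb10, an immunoproteasome subunit, from 17.4 to 10.1. The others were Ifitm1, Ifitm2 and H2-T23, with corrected changes of -0.27, -0.20 and -0.40. Its median was -0.13 (-0.10 length-corrected), beside -0.34 in the TGF-β library. C3 and Tnfsf9, which lie within 300000 bases of each other on chromosome 17, fell together, C3 from 7.29 to 4.5.

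Osteocalcin genes fell. Bglap went from 6.38 to 1.51 and Bglap2 from 8.33 to 3.0. These genes are near-identical, so the division of fragments between them is uncertain. The same holds for Prl2c3 (105 and 27.5) and Prl2c2 (120 and 70.3, length-corrected change -0.45), proliferin genes. Of 11 examined genes of mineralization 4 fell and 1 rose (beside 2.95% and 1.90% of all genes), and those that fell included Bglap, Bglap2 and Spp1, whereas Sparc, osteonectin, had 1108 and 1422.

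Neighbouring keratin genes on chromosome 11 rose, although the cells are fibroblasts. Krt14, a basal keratinocyte keratin, went from 24.0 to 48.2, Krt16 from 1.82 to 4.01 and Krt17 from 0.442 to 1.57, reaching the minimum level through GDF15 alone. The genes lie between 100203162 and 100261029 of GRCm38. Cdsn, corneodesmosin, went from 2.14 to 4.92. Of 6 keratinocyte markers, 4 were at or near 0, with Krt1 and Perp at 0 in both libraries, Krt5 at 0 in CTRL and 0.0231 in GDF15, and Dsg3 at 0.0547 and 0.0469. Krt10, a keratin of differentiated keratinocytes, had 2.49 and 1.96. Over all 6 markers the summed FPKM was 26.6 in CTRL and 50.3 in GDF15, most of it Krt14. The corresponding changes of Krt14 and Krt16 in the TGF-β library were 2.45 and 2.28.

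Genes whose change as deposited was below 2-fold were ranked by their length-corrected change, which could itself exceed 2-fold. Besides the genes already named, the 10 largest rises included Gadd45g, a stress and growth arrest gene, from 6.28 to 12.5. Ctla2a, a cathepsin inhibitor, went from 4.21 to 8.5. The length-corrected changes of Gadd45g and Ctla2a were 1.12 and 1.05. The 10 rises also included Anxa8, an annexin, from 58.4 to 103, Pdgfrl from 10.1 to 17.6 and Fam101b, a filamin regulator, from 5.21 to 10.1. The 10 largest falls of the same ranking included Dmpk from 8.49 to 4.13, a change of -0.89 on the log2(FPKM + 1) scale. Others were Ngef from 13.8 to 7.12, Phka2 from 31.5 to 18.9 and Ralgds from 54.4 to 33.4. Slc27a1, a fatty acid transporter, went from 9.08 to 5.07, and Dlk1, an inhibitor of adipocyte differentiation, from 229 to 148. Ctla2a and its near-identical neighbour Ctla2b on chromosome 13 had changes of 0.87 and 0.43, and their fragments may be shared.

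Several broad families are given for comparison with the median of -0.03 over all genes. The 131 zinc finger genes named Zfp had a median of 0.01, 59 translation factors -0.04, 25 splicing factors 0.00, 36 proteasome subunits -0.13 (0.06 length-corrected) and 42 chromatin regulators 0.08 (-0.01 length-corrected). None of 79 olfactory receptor genes had a mean FPKM of 1.

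**Figure D5:**
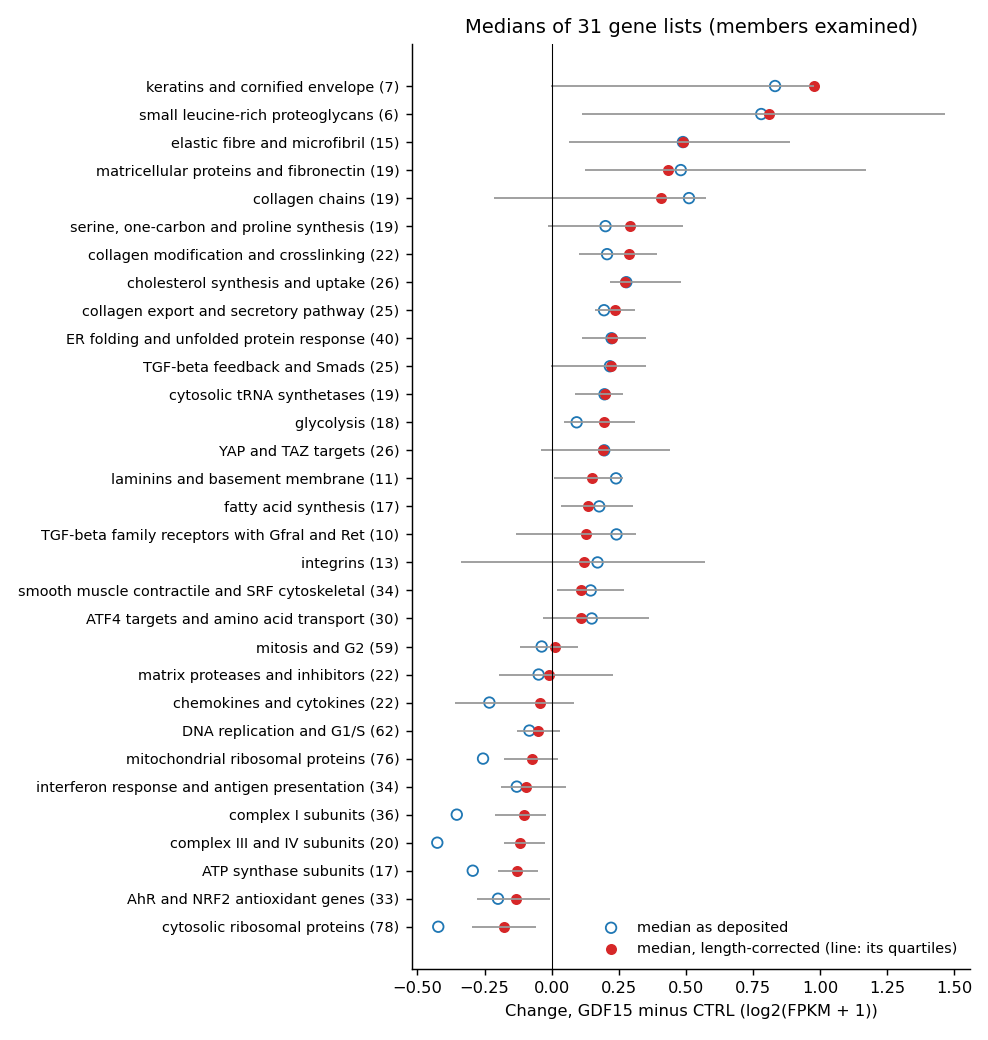
Median change of 31 gene lists (x axis, log2(FPKM + 1), GDF15 minus CTRL) as deposited (open circles) and length-corrected (red, with a line over the quartiles of the members), ordered by the corrected median, with the number of examined members in brackets. Collagen, proteoglycan, elastic fibre, keratin, sterol and secretory lists lie to the right of 0 by either measure, and ribosomal and respiratory chain lists move towards 0 with the correction.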

How the data were processed

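NIH3T3 RNA was sequenced as 1 pooled, stranded, single-end mRNA library per treatment. The authors calculated FPKM with Cufflinks and deposited the rows of reviewed protein coding genes. The submitters' processing notes list TopHat 1.3.2, Bowtie 0.12.9, Cufflinks 2.0.2 and the build mm10. Whether the strand was used in counting is not given in the sources used here. From the deposited FPKM, log2(FPKM + 1) was computed for genes whose FPKM averaged 1 or more over CTRL and GDF15. Of 15554 rows, 15473 were matched to GENCODE M21 (GRCm38), 14725 by symbol and 748 by an older symbol, for transcript length, GC content and coordinates. Length was that of the longest coding transcript, and running medians covered 501 genes. Depths and fragment numbers are estimates from the steps of low FPKM, and cover counting error only. Promoter windows came from RefSeq. Symbols on more than 1 row were taken once within a list.

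The 82 lists, 57 written by gene and 25 by symbol pattern, and the motifs were chosen with earlier results of these data known. Named are, per list, the 4 largest changes and the 2 highest CTRL levels, list members over 2-fold, the 10 largest length-corrected rises and falls below 2-fold at a mean FPKM of at least 5, receptors, markers and the promoter genes. Genes outside these (Col4a3bp, Cort, Csrp2, Ctla2b, Fgd3, Fhl1, Gdf15, Il33, Il34, Itga2b, Itgb3, Lgr4, Nov, Pycr1, Thbs1, Ugt1a9, Vma21, Col5a1, Col16a1 and the Fkbp genes) were named after their values were seen. The 2-fold limit of the 10 largest rises and falls applied to the change as deposited, and their ranking to the length-corrected change. Pseudocounts of 0.5 and 0.1, other minimum levels, scalings and trend corrections were alternatives. A common FPKM sum and a length trend without the list were added after seeing the data. The length correction was tested on simulated data. Some items are not reported here. Python 3.11.15 was used, with the packages matplotlib 3.10.9, pandas 2.3.3 and numpy 2.4.6.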

Additional observations from a re-analysis of the deposited data

How the results depend on the processing

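No paired analysis was possible because every group holds a single library, and no library could be left out. Over all settings that kept a minimum level, 20 of the 31 list medians were above 0 throughout, 8 were below 0 throughout, and 3 changed sign (mitosis, DNA replication and matrix proteases). Scaling to a common FPKM sum, chosen after seeing the data, moved the median of all genes from -0.03 to 0.06, and the causes of differences between settings were not tested. Falls over 2-fold numbered 12, but 31 with a pseudocount of 0.1, 7 with a minimum mean FPKM of 5 and 7 without the length trend. Falls past 0.5 numbered 272, but 175 with a common upper quartile, 93 without the length trend, 132 with median transcript lengths, 84 without length and GC trends and 122 with a common FPKM sum, where rises numbered 319 in place of 175. With no minimum level the medians were 0.011 for collagen chains, 0.065 for small leucine-rich proteoglycans, 0.22 for matricellular genes, 0.00 for integrins and for receptors, -0.054 for chemokines and 0.004 for keratins, since unexpressed members then count. With a minimum of 5 they were 0.20 for the proteoglycans, 0.53 for integrins and 0.54 for keratins. With a pseudocount of 0.1 they were 0.64 for matricellular genes and 1.0035 for keratins. Without the expression trend collagen chains were at 0.67 and glycolysis at 0.25. Without the length trend the medians were -0.18 for cytosolic and -0.075 for mitochondrial ribosomal proteins, -0.10 for complex I, -0.12 for complexes III and IV, -0.13 for ATP synthase and -0.045 for chemokines. Without length and GC trends they were -0.15, -0.060, -0.087, -0.068, -0.054 and -0.025 in the same order, 0.055 for receptors and 1.06 for keratins. With the list left out of the length trend they were -0.21, -0.076, -0.11, -0.13, -0.13 and -0.045. With median transcript lengths complex I was at -0.20 and ATP synthase at -0.14. Of 401 named genes, 49 changed sign in at least 1 setting, none of them a gene past 0.5, and 193 of 3556 values moved by more than the local spread.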

Other observations

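Among 24 examined p53 targets the median was 0.03 and 3 rose (beside 1.90% of all genes). Those that rose included Gadd45b, from 3.97 to 6.08, and Plk2, a polo-like kinase, from 54.8 to 93.4. Cdkn1a, the cell cycle inhibitor p21, had 240 and 195. Among 16 genes of the circadian clock, with a median of 0.05, none rose or fell as deposited and 1 was over 0.5 after the length correction, with Arntl at 6.22 and 8.59 and Dbp, an output gene, at 18.4 and 12.8. In the hyaluronan list Vcan, the versican gene, went from 47.4 to 80.0, whereas Tnfaip6, which crosslinks hyaluronan, fell from 11.5 to 7.74 as deposited and had a length-corrected change of -0.39. Secreted ligands moved in both directions, with Pdgfc from 6.13 to 10.2, Fgf7 from 9.26 to 14.8 and Sema3c from 88.9 to 137, but Angptl4 from 77.8 to 52.5.

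C1qtnf3 had the largest change of the table, from an FPKM of 0.124, an estimated 4.92 fragments, to 11.3, an estimated 523 fragments, and the other 2 examined members of its family, C1qtnf1 and C1qtnf6, had changes of 0.04 and -0.16. Cort, chosen after its values were seen, lay at 1.09 in CTRL and 0.156 in GDF15, but this rests on an estimated 12.5 and 2.09 fragments.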
